A study of Mus musculus with 9 samples.

Results

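The ERBB family of growth factor receptors and its ligands other than *Egf* was read in the male mouse submandibular gland (SMG). The 10 genes were taken by name: the receptors *Egfr*, *Erbb2*, *Erbb3* and *Erbb4*, and the ligands *Tgfa*, *Hbegf*, *Btc*, *Nrg1*, *Areg* and *Ereg*. They are 10 of 48733 rows of the count table. The deposited normalized table of 17562 rows held 8 of them, without *Areg* and *Ereg*. Of the 10 genes, 7 passed the filter on low counts and were tested among 13842 rows, and *Nrg1*, *Areg* and *Ereg* were not tested.

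ERBB receptors are tyrosine kinases at the cell surface that work as pairs. *Egfr*, *Erbb3* and *Erbb4* bind ligand, *Erbb2* has no known ligand of its own and joins the others as a partner, and *Erbb3* has a weak kinase and signals through its partner. The ligands are made as membrane-anchored precursors, and proteases of the ADAM family release the EGF-like domain that binds the receptor. TGF-alpha and amphiregulin bind EGFR, HB-EGF, betacellulin and epiregulin bind EGFR and ERBB4, and neuregulin 1 binds ERBB3 and ERBB4. HB-EGF, amphiregulin and some neuregulin 1 isoforms also bind heparan sulfate (HS), the sulfated polysaccharide that the deleted enzymes modify. The granular ducts of the male mouse SMG are a classical source of EGF itself.

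The libraries came from the SMGs of 4 wild-type (WT) and 5 double-knockout (DKO) adult male mice on a C57BL/6 background. DKO mice lack *Hs3st3a1* and *Hs3st3b1*, which encode 3-*O*-sulfotransferases of HS, in all cells rather than in a chosen cell type. Both genes were inactivated on the same chromosome 11, *Hs3st3b1* by a targeted knockout allele and *Hs3st3a1* by zinc finger nucleases. The labels do not say which founder line the sequenced mice came from. Each mouse gave 1 unstranded library. The comparison asks whether the RNA of ERBB receptors and their ligands differed between DKO and WT glands.

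Total counts were 20653492 to 37870519 per library in WT and 17053747 to 34683690 in DKO, and the 20 most abundant genes took 52.9% to 58.7% of the counts in WT and 59.4% to 70.3% in DKO. The limit that a count of 0 allows, 3 reads, was worth 0.0665 to 0.134 CPM (the reads of a gene scaled to the size of the library) in WT and 0.0876 to 0.217 CPM in DKO, for counting error only. The deleted *Hs3st3a1* was read 7, 3, 14 and 9 times in the WT libraries and never in the DKO libraries, at least 11.2-fold lower when 3 counts are taken as the floor of a group. *Hs3st3b1* levels were 4.49 ± 1.03 CPM (SD, n = 4) in WT against 1.02 ± 0.546 CPM (SD, n = 5) in DKO, and the log2 fold change was -2.11 (edgeR adjusted p = 0.0478).

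The shared feature of the ligands is the EGF-like domain, in which 6 cysteines form disulfide bonds. The stretch of coding sequence from the first to the sixth cysteine codon is shown for 5 of the 6 ligands, without *Hbegf*. Cysteine codons are in capitals. The stretches show what these 5 ligands have in common and how the neuregulin 1 isoforms part. Sequences were read 5′ to 3′ on the coding strand from GENCODE M21 transcripts (GRCm38).
Tgfa: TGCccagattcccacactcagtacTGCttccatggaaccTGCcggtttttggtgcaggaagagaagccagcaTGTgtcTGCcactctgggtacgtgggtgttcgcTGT
Btc: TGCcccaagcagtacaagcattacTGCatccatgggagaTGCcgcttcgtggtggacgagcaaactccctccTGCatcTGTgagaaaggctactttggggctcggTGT
Areg: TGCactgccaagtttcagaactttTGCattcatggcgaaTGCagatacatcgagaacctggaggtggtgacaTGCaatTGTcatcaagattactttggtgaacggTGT
Ereg: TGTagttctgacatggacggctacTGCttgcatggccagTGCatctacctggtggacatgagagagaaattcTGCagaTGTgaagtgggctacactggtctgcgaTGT
Nrg1 variant 1: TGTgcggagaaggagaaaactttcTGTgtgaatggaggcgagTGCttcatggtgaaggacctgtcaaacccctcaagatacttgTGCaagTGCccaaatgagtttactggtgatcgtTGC
Nrg1 variant 2: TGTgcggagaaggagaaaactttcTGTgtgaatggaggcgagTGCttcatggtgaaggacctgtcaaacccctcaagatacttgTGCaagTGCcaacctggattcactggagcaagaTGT
The stretch was 108 bases (36 codons) long in *Tgfa*, *Btc*, *Areg* and *Ereg* and 120 bases (40 codons) in both *Nrg1* variants, and each was split over 2 exons. *Nrg1* variant 1 was found in 7 of 11 coding transcripts and variant 2 in 4 of 11. They share the 5′ part and differ after the fifth cysteine codon, where a different second exon is used. The gene counts do not separate these isoforms.

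In GRCm38 the *Tgfa* stretch runs from chr6:86263200-86269960 on the plus strand, over exons 3 and 4 of 6, within a gene at chr6:86195223-86275719. The *Btc* stretch lies at chr5:91362421-91366197 on the minus strand, *Areg* at chr5:91143614-91144364 and *Ereg* at chr5:91088496-91089111, both on the plus strand. *Btc*, *Areg* and *Ereg* are neighbours, and with *Epgn*, another EGFR ligand, they occupy 375.5 kb of chromosome 5. *Nrg1* lies on chromosome 8 from 31814551 to 32884029 on the minus strand, with variant 1 at chr8:31837698-31849398 and variant 2 at chr8:31838298-31849398. *Hbegf* lies on chromosome 18. *Egfr* (16752203 to 16918158) and *Erbb2* (98412470 to 98437716) are on the plus strand of chromosome 11, *Erbb3* on the minus strand of chromosome 10 (128567523 to 128589652) and *Erbb4* on the minus strand of chromosome 1 (68032186 to 69108059). The libraries were unstranded, and exons of 4 of these genes overlap an opposite-strand gene: *Tgfa* by 1.82% of its exonic length, *Nrg1* by 4.66%, *Ereg* by 3.42% and *Erbb2* by 0.173%. Reads in those overlaps cannot be assigned to a strand, and how they were counted is not given.

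Among the tested genes, *Tgfa*, an EGFR ligand, separated the genotypes. It was higher in every DKO library than in any WT library, and the other 6 tested genes differed by less than the spread between libraries. With the quasi-likelihood test of edgeR, adjusted over all tested genes by the Benjamini-Hochberg method, 0 of the 7 tested genes passed an adjusted p of 0.05, beside 87 of 13842 genes (0.629%) in either direction. *Tgfa* missed that threshold narrowly. It was the only one of the 7 with an unadjusted p under 0.05, beside 2006 of 13842 genes in either direction. By DESeq2, the tool named in the study's methods, 1 of the 7 was higher in DKO, beside 245 of 13832 genes called higher (1.77%) and 616 called in either direction (4.45%). The groups did not overlap for 1 of the 7 genes, *Tgfa*, which was higher in DKO. Of 13842 genes, 339 (2.45%) had all 5 DKO values above the 4 WT values, and 485 (3.5%) had all below. The median log2 fold change of the 7 genes was 0.096, with 6 positive and 1 negative, and that of all tested genes was 0.015. In whole-gland RNA, fewer cells of a type and less RNA per cell cannot be told apart.

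**Figure D1:**
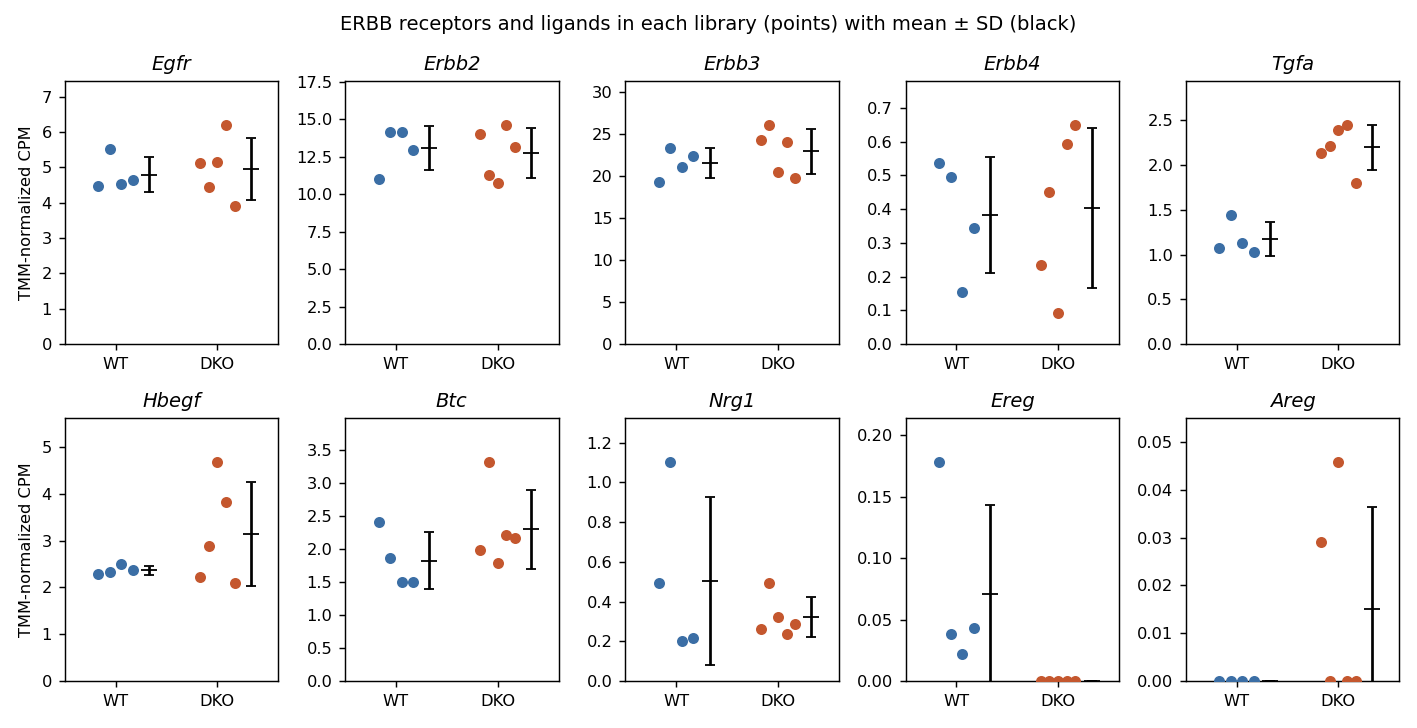
Each point is 1 library and gives the TMM-normalized CPM of the gene named above the panel, on an axis of its own that starts at 0, with the mean ± SD of 4 WT and 5 DKO libraries in black. The groups overlap in every panel except *Tgfa*, where DKO libraries lie from 1.80 to 2.45 and WT libraries from 1.03 to 1.45, and *Ereg*, where DKO libraries are at 0 and WT libraries hold 1 to 4 counts.

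Among the receptors, *Erbb3*, the kinase-impaired neuregulin receptor, was the most abundant. TMM-normalized values were 19.3, 23.3, 21.0 and 22.4 CPM in WT replicates 1 to 4 and 24.3, 26.1, 20.5, 24.0 and 19.7 CPM in DKO replicates 1 to 5. DKO replicates 1, 2 and 4 lay above every WT library and the ranges overlapped. The means were 21.5 ± 1.77 CPM (SD, n = 4) and 22.9 ± 2.70 CPM (SD, n = 5). The log2 fold change was 0.10 with an SE of 0.113 (edgeR adjusted p = 0.773), and the 95% interval of the fold was 0.90 to 1.27.

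*Erbb2*, the receptor without a ligand, had 11.0, 14.1, 14.2 and 12.9 CPM in WT and 14.0, 11.2, 10.8, 14.6 and 13.1 CPM in DKO. The lowest WT value and the lowest DKO value were close and the groups overlapped over nearly their whole range. The log2 fold change was -0.03 with an SE of 0.130 (edgeR adjusted p = 0.942), and the 95% interval of the fold was 0.802 to 1.19.

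*Egfr*, the receptor for TGF-alpha and EGF, had 4.47, 5.52, 4.54 and 4.64 CPM in WT and 5.11, 4.43, 5.15, 6.20 and 3.90 CPM in DKO. The lowest and the highest of the 9 values were both from DKO. The log2 fold change was 0.06 with an SE of 0.157 (edgeR adjusted p = 0.918), and the 95% interval of the fold was 0.820 to 1.32. For each of *Egfr*, *Erbb2* and *Erbb3* a change of 1.5-fold in either direction lay outside the interval.

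*Erbb4*, which binds neuregulins, HB-EGF and betacellulin, was near the limit of detection. Its counts were 12, 13, 7 and 8 in WT and 8, 11, 2, 15 and 9 in DKO. The groups overlapped, with both the lowest and the highest count in DKO. The means were 0.382 ± 0.173 CPM (SD, n = 4) and 0.404 ± 0.237 CPM (SD, n = 5), and the 95% interval of the fold, 0.472 to 2.38, left changes of about that size undetectable at this depth (log2 fold change 0.08, edgeR adjusted p = 0.966). The exact two-sided permutation test over the 126 splits of 4 against 5 libraries gave p = 0.802 for *Egfr*, 0.810 for *Erbb2*, 0.405 for *Erbb3* and 0.960 for *Erbb4*.

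Turning to the ligands of EGFR, *Tgfa* encodes TGF-alpha, a membrane-anchored EGFR ligand of many epithelia. It had 1.07, 1.45, 1.13 and 1.03 CPM in WT and 2.13, 2.22, 2.39, 2.45 and 1.80 CPM in DKO, from 24 to 51 counts per WT library and 25 to 73 per DKO library. The lowest DKO value, in replicate 5, the library with the fewest counts, lay above the highest WT value, in replicate 2. The means were 1.17 ± 0.190 CPM (SD, n = 4) and 2.20 ± 0.255 CPM (SD, n = 5).

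The fold between the genotypes was 1.88, with a 95% interval of 1.39 to 2.55. The log2 fold change was 0.91 with an SE of 0.199 (edgeR adjusted p = 0.0568). *Tgfa* rose by DESeq2 (log2 fold change 0.92, adjusted p = 0.00487) and by limma-voom with sample quality weights (0.94, adjusted p = 0.0468). The exact two-sided permutation test gave p = 0.00794, the smallest that 4 against 5 libraries allow.

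The call for *Tgfa* turned on single WT libraries while its direction did not. Without WT replicate 2, the highest WT library, the edgeR adjusted p was 0.0404, and without WT replicate 1 it was 0.220. By DESeq2 the call held without any other single library and was lost without WT replicate 3, with an adjusted p of 0.0575. CPM of the unscaled total ranged from 1.12 to 1.64 in WT (1.32 ± 0.237, SD, n = 4) and from 1.47 to 2.72 in DKO (2.03 ± 0.458, SD, n = 5), so that without TMM scaling the groups overlapped. With that scaling the edgeR log2 fold change was 0.62 (adjusted p = 0.161) while the median of all genes was -0.28, and *Tgfa* relative to that median was 0.90, the value found with TMM scaling as well.

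**Figure D2:**
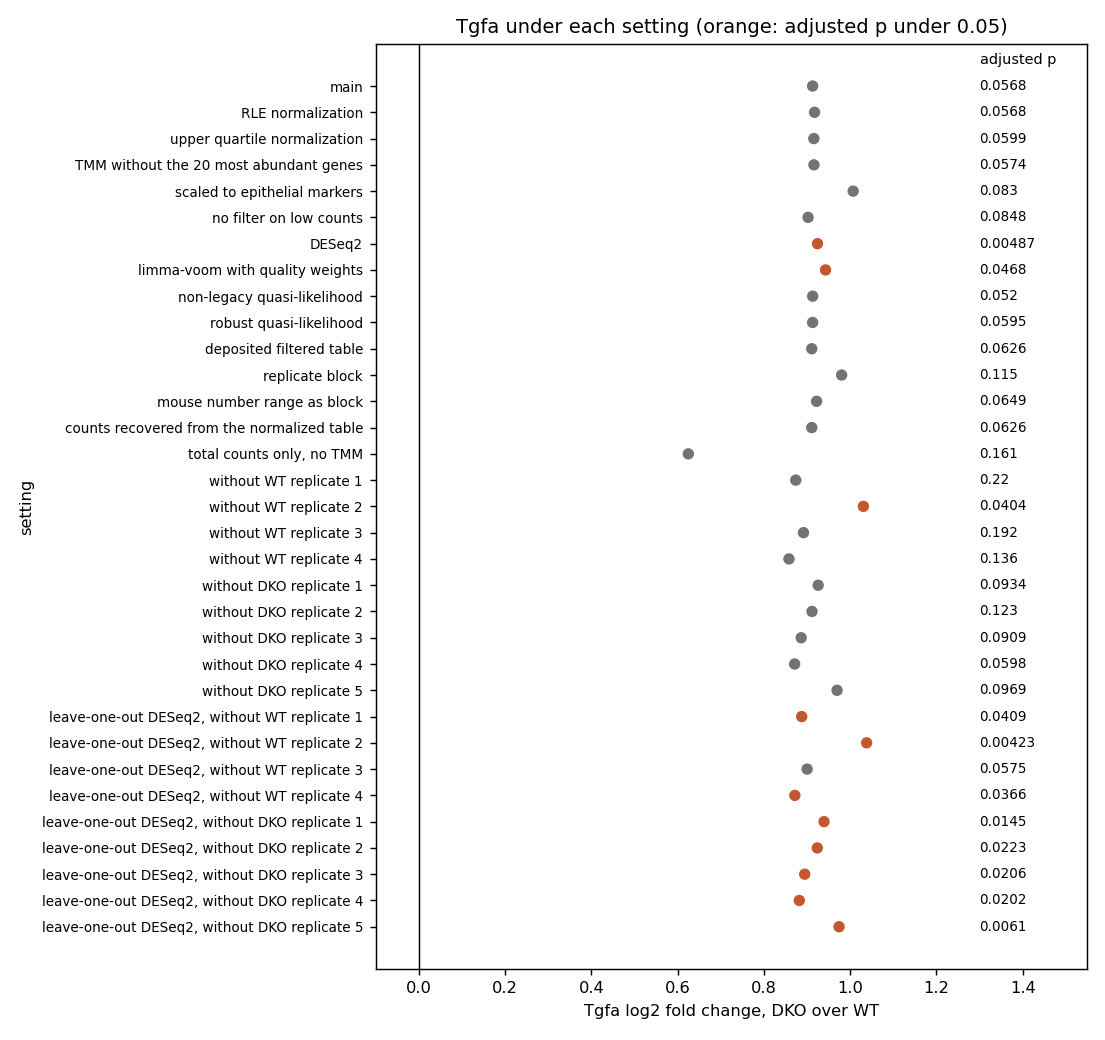
Each point is the log2 fold change of *Tgfa*, DKO over WT, under the setting named on the vertical axis, with its adjusted p printed at the right and orange where it is under 0.05. All points lie right of 0, from 0.62 with total counts only to 1.04 for DESeq2 without WT replicate 2, and the point named main is the edgeR fit of all 9 libraries.

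The numbers in the mouse labels fall into 3 ranges, and each holds both genotypes. The ratio of mean *Tgfa* levels, DKO over WT, was 1.73 for the 2 WT and 2 DKO mice with the lowest numbers, 1.88 for the 1 WT and 2 DKO mice with numbers in between, and 2.32 for the 1 WT and 1 DKO mouse with the highest numbers. *Tgfa* was higher in DKO within each range. What these number ranges stand for is not given in the labels.

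*Hbegf* encodes HB-EGF, the heparin-binding ligand of EGFR and ERBB4. It had 2.28, 2.32, 2.5 and 2.36 CPM in WT and 2.22, 2.87, 4.69, 3.83 and 2.09 CPM in DKO. The 4 WT libraries lay close together and the 5 DKO libraries spread to both sides of them, with 3 above every WT library and 2 below. The coefficient of variation was 4.11% in WT and 35.2% in DKO, a difference that was not tested. The WT libraries held 51 to 113 counts and the DKO libraries 29 to 102. At such counts, counting error alone is larger than 4.11%, so the closeness of the WT values does not measure the spread between mice. The means were 2.37 ± 0.0973 CPM (SD, n = 4) and 3.14 ± 1.11 CPM (SD, n = 5), and the log2 fold change was 0.41 with an SE of 0.242 (edgeR adjusted p = 0.485). The 95% interval of the fold was 0.921 to 1.92, and the exact permutation p was 0.278.

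*Btc* encodes betacellulin, a further ligand of EGFR and ERBB4. It had 2.41, 1.87, 1.51 and 1.50 CPM in WT and 1.99, 3.32, 1.79, 2.21 and 2.17 CPM in DKO. DKO replicate 2 alone lay above every WT library. The log2 fold change was 0.34 with an SE of 0.239 (edgeR adjusted p = 0.578), the 95% interval of the fold was 0.883 to 1.82, and the exact permutation p was 0.198. The intervals of *Hbegf* and *Btc* both include 1 and both overlap the interval of *Tgfa*, and the difference between the ligands was not tested.

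*Areg*, encoding amphiregulin, was at the edge of detection. It had 0 counts in all 4 WT libraries and 1, 0, 1, 0 and 0 counts in DKO. A fold cannot be given. The zeros allow up to 0.134 CPM in the shallowest WT library.

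*Ereg*, encoding epiregulin, was counted 4, 1, 1 and 1 times in the WT libraries and 0 times in each DKO library. Summed over the groups this was 7 counts against 0. With a DKO floor of 3 counts over the group, DKO was at least 2.38-fold lower. That bound takes the 7 WT counts as exact, without their counting error. WT replicate 1 held 4 of the 7 counts, and without it WT had 3 counts, which is the floor itself, and no bound can be given. WT levels were 0.0222 to 0.179 CPM, and the zeros of the DKO libraries allow up to 0.0876 to 0.217 CPM each, so that single libraries cannot show a difference at this depth. The exact permutation p was 0.00794, the smallest possible, on 7 reads in all.

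*Nrg1*, encoding neuregulin 1, was counted 11, 29, 9 and 5 times in the WT libraries and 9, 12, 7, 6 and 4 times in the DKO libraries. WT replicate 2 stood above the other 8 libraries with 1.10 CPM, and the remaining values were 0.199 to 0.493 CPM. The means were 0.503 ± 0.423 CPM (SD, n = 4) and 0.321 ± 0.101 CPM (SD, n = 5), with overlapping groups (exact permutation p = 0.532).

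**Figure D3:**
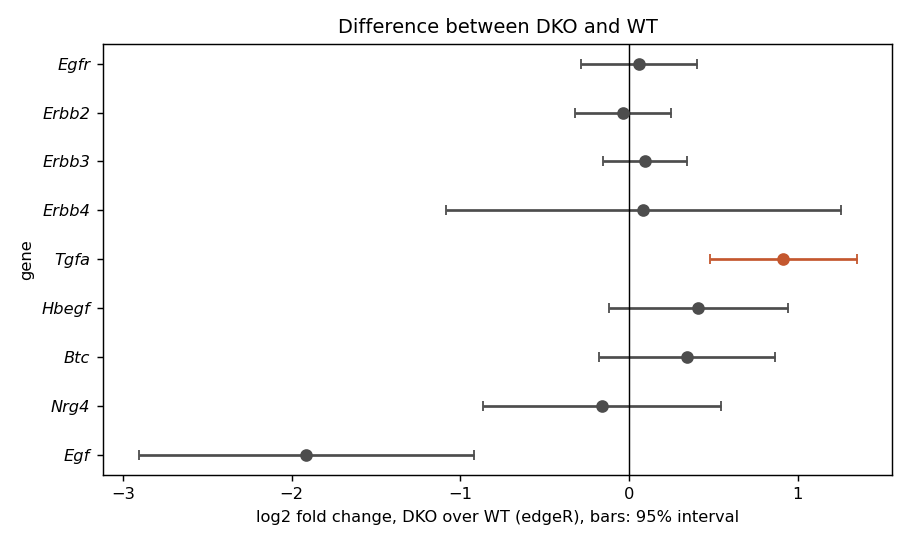
Points are log2 fold changes, DKO over WT, from edgeR's fit with 95% intervals as bars, for the 7 tested members and for *Nrg4* and *Egf* as context. The interval of *Tgfa* (orange) lies right of 0, that of *Egf* lies left of 0, and the others cross 0.

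Levels of different genes were compared as CPM per kb of exons. In WT the order was *Erbb3* (3.57), *Erbb2* (2.51), *Hbegf* (0.490), *Egfr* (0.423), *Btc* (0.403), *Tgfa* (0.180), *Nrg1* (0.0486), *Erbb4* (0.0310), *Ereg* (0.0171) and *Areg* (0). The ranges over libraries were apart between *Erbb3* and *Erbb2* (ratio of means 1.43), *Erbb2* and *Hbegf* (5.12), *Btc* and *Tgfa* (2.24), and *Tgfa* and *Nrg1* (3.71). Neighbours whose ranges overlapped were *Hbegf* and *Egfr*, *Egfr* and *Btc*, *Nrg1* and *Erbb4*, and *Erbb4* and *Ereg*. Within libraries, *Erbb4* was above *Ereg* in 4 of 4, and in each of the other pairs the upper gene was higher in 3 of 4. Divided by the longest transcript instead, *Hbegf* came to 0.819 in WT and *Egfr* to 0.469, so the distance between these neighbours depends on which length is used.

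In DKO the order on the same scale was *Erbb3* (3.81), *Erbb2* (2.45), *Hbegf* (0.650), *Btc* (0.508), *Egfr* (0.438), *Tgfa* (0.339), *Erbb4* (0.0327), *Nrg1* (0.0310), *Areg* (0.0124) and *Ereg* (0). The ranges of *Hbegf* and *Btc*, of *Btc* and *Egfr* and of *Erbb4* and *Nrg1* overlapped in DKO, with *Btc* above *Egfr* in 2 of 5 libraries and *Erbb4* above *Nrg1* in 2 of 5, so that these neighbours did not differ beyond their spread in either genotype. *Tgfa* was below *Egfr* in all 5 DKO libraries, although the ranges of the pair overlapped, and in WT its range lay below those of *Egfr* and *Btc*. Divided by the longest transcript instead, the DKO means were 0.486 for *Tgfa* and 0.486 for *Egfr*, so their order in DKO depends on which length is used. *Erbb3* made up 54.7% of the summed receptor level in WT and 56.6% in DKO, *Erbb2* 38.3% and 36.4%, *Egfr* 6.48% and 6.51%, and *Erbb4* 0.481% and 0.483%. In both genotypes the receptor RNA was mostly that of the neuregulin receptor and its partner, and little was *Egfr*.

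The 6 ligands together summed to 1.14 ± 0.127 CPM per kb (SD, n = 4) in WT and to 1.54 ± 0.271 (SD, n = 5) in DKO. *Hbegf* took 43.5% of this sum in WT and 41.4% in DKO, *Btc* 35.1% and 33.5%, and *Nrg1* 4.08% and 2.03%. The *Nrg1* share was 8.66% in WT replicate 2, and without that library the WT mean was 2.55% ± 1.06 (SD, n = 3). The share of *Tgfa* was 13.1% to 18.1% in WT (15.9% ± 2.09, SD, n = 4) and 19.9% to 25.7% in DKO (22.3% ± 2.32, SD, n = 5), and the groups did not overlap. The 4 receptors together had 6.53 ± 0.567 CPM per kb in WT and 6.73 ± 0.634 in DKO (SD, n = 4 and 5).

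**Figure D4:**
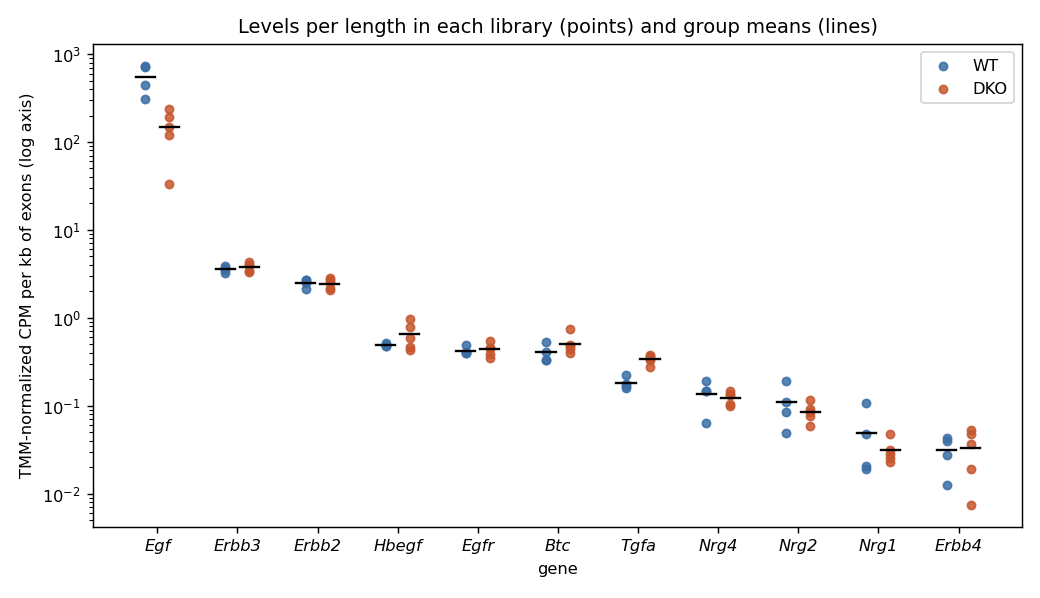
Points are libraries and lines are group means of TMM-normalized CPM per kb of exons, on a log axis, for 8 of the 10 genes and for *Egf*, *Nrg4* and *Nrg2*. *Areg* and *Ereg* are left out because libraries at 0 cannot be drawn on a log axis. *Egf* lies far above all of them in both genotypes, *Erbb3* and *Erbb2* come next, and *Nrg1* and *Erbb4* lie lowest, with overlapping ranges.

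*Egf* dwarfed the other ligands. It had 8263, 3508, 8138 and 5055 CPM in WT and 2171, 1363, 378 and 2690 CPM in DKO replicates 1 to 4 and 1658 CPM in replicate 5, and fell by DESeq2 (adjusted p = 0.00193) with an edgeR adjusted p of 0.0670. Per length, the *Egf* level was 252 to 687 times the sum of the 6 ligands in WT (median 512) and 18.6 to 151 times in DKO (median 121). Relative to *Tgfa* alone it was 1395 to 4436 times in WT and 91.1 to 632 times in DKO. With the longest transcripts as lengths these ratios were higher, at 409 to 1116 (WT) and 29.5 to 253 (DKO) for the sum and 2304 to 7328 (WT) and 150 to 1044 (DKO) for *Tgfa*. *Egf* thus exceeded *Tgfa* in every library of both genotypes.

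The other ligands of the family were low. *Nrg4*, an ERBB4 ligand, had 0.832 ± 0.324 CPM (SD, n = 4) in WT against 0.749 ± 0.130 (SD, n = 5) in DKO, and its log2 fold change was -0.16 (edgeR adjusted p = 0.881). *Nrg2* had 6 to 14 counts per WT library and 4 to 9 per DKO library and was not tested. *Epgn*, the neighbour of *Ereg*, had 3 counts in DKO replicate 3 and 0 in the other 8 libraries, and *Nrg3* had 0 in all 9.

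The pathway around the receptors was read from 4 lists. Of the genes for ligand shedding and trafficking, 10 of 11 were tested and 0 passed by edgeR or by DESeq2, with a median log2 fold change of -0.02. The sheddase *Adam17* and its partner *Rhbdf2* had log2 fold changes of 0.05 and 0.30 (edgeR adjusted p = 0.918 and 0.410). *Rhbdf2* was higher in every DKO library than in any WT library, beside 339 of 13842 genes (2.45%) with such a gap. It had 2.32 to 2.90 CPM in WT and 2.96 to 3.82 CPM in DKO, and it did not pass either test. Of the 31 adaptors and effectors, all were tested and 0 passed either test, with a median of 0.01. The small GTPases *Hras* and *Nras* were lower in every DKO library than in any WT library, beside 485 of 13842 genes (3.5%) with such a gap. *Hras* had 6.51 to 8.80 CPM in WT and 4.61 to 6.44 CPM in DKO, with a log2 fold change of -0.47 (edgeR adjusted p = 0.138). *Nras* had 318 to 361 CPM in WT and 271 to 316 CPM in DKO, with a log2 fold change of -0.18 (edgeR adjusted p = 0.482).

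Of the 17 genes that restrain or turn over the receptors, all were tested and 0 passed either test, with a median log2 fold change of -0.06. *Lrig1*, which promotes ERBB receptor degradation, had a log2 fold change of 0.54 (edgeR adjusted p = 0.224). Of the 17 feedback and early genes of the ERK pathway, 15 were tested, 0 passed by edgeR and 1 by DESeq2, *Dusp4*, with a median of 0.00 for the list. *Dusp4*, a phosphatase of MAP kinases, had 1.21, 1.56, 2.33 and 0.816 CPM in WT and 2.83, 2.67, 6.53, 2.17 and 10.3 CPM in DKO. The groups overlapped, and DKO replicates 3 and 5 were the highest. Its log2 fold change was 1.67 with an SE of 0.485 (edgeR adjusted p = 0.129, DESeq2 adjusted p = 0.00729).

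The composition of the libraries moved with genotype. The summed level of 8 acinar markers was 173068 to 257968 CPM in WT and 270933 to 454311 CPM in DKO, with all 8 log2 fold changes positive, 0 called by edgeR and 4 called higher by DESeq2. *Mucl1* of this list had 37205 CPM in WT replicate 1 and 99626 CPM in DKO replicate 1 against 0.987 to 4.87 CPM in the other 7 libraries, so that its fold rests on 1 library per group, and the ranges of the sum were the same to 3 digits without it. The sum of 8 granular duct markers, *Egf* among them, was 35454 to 83855 CPM in WT and 5151 to 27914 CPM in DKO, with all 8 negative, 0 called by edgeR and 7 called lower by DESeq2. All 7 myoepithelial markers were lower by DESeq2 and 4 by edgeR, and their sum was 637 to 1027 CPM in WT and 248 to 572 CPM in DKO. *Tgfa* and these sums differed together between the genotypes. Within DKO, replicate 4 had the highest *Tgfa*, 2.45 CPM, with the lowest acinar sum and the highest granular duct sum. Replicate 3 had the next highest, 2.39 CPM, with the highest acinar sum and the lowest granular duct sum. The part of these sums in the *Tgfa* difference was not tested.

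**Figure D5:**
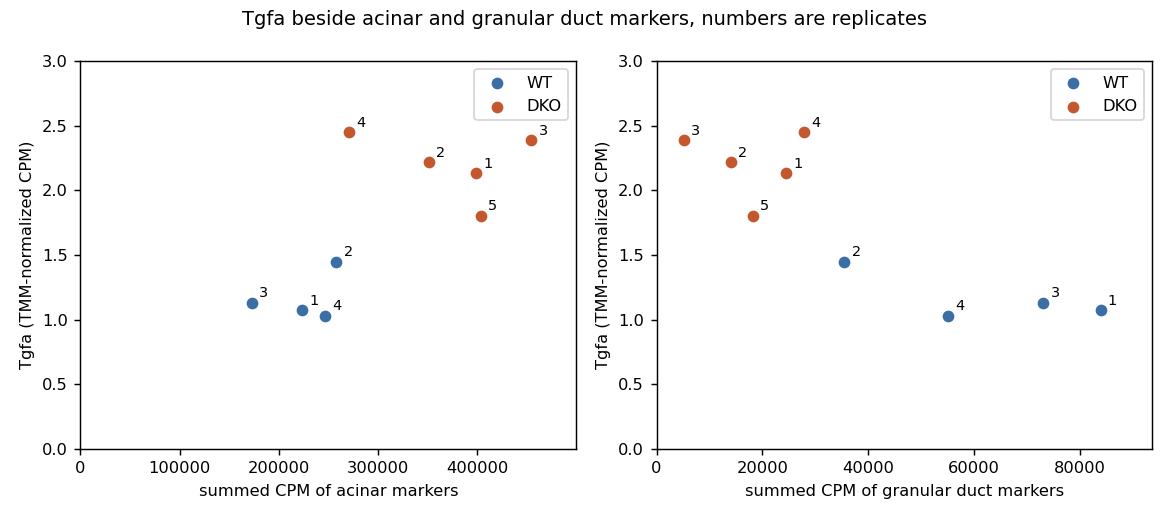
Each point is 1 library, with the replicate number beside it, the TMM-normalized CPM of *Tgfa* on the vertical axis and the summed CPM of 8 acinar markers (left) or 8 granular duct markers (right) on the horizontal axis. DKO libraries lie at higher *Tgfa*, higher acinar sums and lower granular duct sums than WT libraries, with no overlap on any of the 3 measures, and the acinar sums of both replicates 1 include *Mucl1*.

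Among the other marker lists, the 5 markers of all epithelium summed to 1390 to 1535 CPM in WT and 1174 to 1566 CPM in DKO, with none called by edgeR or DESeq2. Nerve and Schwann cell markers, cells in which *Erbb3* is known to work, summed to 64.2 to 91.3 CPM in WT and 53.6 to 68.7 CPM in DKO, and *Ngfr* of this list was lower by DESeq2. Basal duct markers summed to 43.1 to 59.4 and 29.2 to 45.0 CPM, with 1 of 4 lower by DESeq2, *Krt14*. That gene is also among the myoepithelial markers and made up most of the basal duct sum (28.8 to 44.5 CPM in WT and 19.8 to 30.4 CPM in DKO). No tested gene was called by edgeR or DESeq2 among the markers of fibroblasts (241 to 396 and 122 to 296 CPM in WT and DKO), leukocytes (37.6 to 49.6 and 24.6 to 54.0), endothelium (15.8 to 21.6 and 20.8 to 27.7), adipocytes (2.37 to 3.54 and 2.53 to 6.30), mast cells (0.229 to 1.79 and 0.0821 to 1.29, *Fcer1a* at 0) or the sublingual gland (0.648 to 4.28 and 0.650 to 7.03). Only 4 of 6 leukocyte, 2 of 5 adipocyte, 1 of 5 mast cell and 1 of 3 sublingual markers were tested. *Muc19*, a sublingual marker that was not tested, had 3.81 CPM in WT replicate 3 and 6.12 CPM in DKO replicate 4. It made up most of the highest sublingual sum of each genotype. Skeletal muscle markers summed to 2.67 to 6.78 and 2.31 to 4.12 CPM, with *Myh4* at 0. Of the 2 tested muscle genes *Acta1* was lower by both tests, and *Ckm* had a log2 fold change of 0.61 (edgeR adjusted p = 0.313). Parotid gland markers summed to 27.7 to 57.9 CPM in WT and 68.2 to 8081 CPM in DKO, highest in DKO replicate 1, with none called (of the 3 tested, *Bpifa2* and *Amy1* have no DESeq2 adjusted p), and *Tgfa* in that library, 2.13 CPM, lay within the range of the other DKO libraries.

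The members were not alike across libraries. Pearson's r of log2(CPM + 0.5) over the 9 libraries, which share the library scaling and the genotypes, was between -0.417 for *Erbb2* and *Btc* and 0.613 for *Tgfa* and *Hbegf*. The 3 genes most like *Tgfa* among 13841 were *Ccdc9b* (r = 0.955), *Morn1* (r = 0.947) and *Pigz* (r = 0.939), and 16 genes had an r over 0.9. With the genotype means removed, r fell to 0.817, 0.486 and 0.902, so that much of the likeness of *Morn1* lay in the difference between the genotypes. The genes most like *Erbb3* were *Bcl11a* (0.955), *Stom* (0.949) and *Garem1* (0.940), and those most like *Erbb2* were *Abi3* (0.932), *Ptprcap* (0.926) and *Npc1* (0.912). *Egfr* went most with *Gm26538* (0.930), *Adgrg3* (0.905) and *Rapgef6* (0.901). *Hbegf* went with *Tia1* (0.950), *Naa25* (0.931) and *9530082P21Rik* (0.919), and *Btc* with *Tmem126a* (0.960), *Faap20* (0.948) and *Zfp946* (0.936). The highest of 13841 correlations over 9 libraries is large for any gene, so these names describe the libraries only.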

How the data were processed

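RNA of 9 SMGs (4 WT, 5 DKO) was read from 3 deposited tables. The authors deposited raw read counts on 48733 rows (48709 genes, 17 transgenes, 7 spike-ins), the same counts on 17562 filtered rows, and these as signal values in TMM-normalized CPM units. The submitters' processing notes name STAR 2.5.2a, DESeq2, edgeR and limma and the builds GRCm38, mm10 and GRCh38, without roles. The counter and annotation are not given in the sources used here. Of 158058 deposited CPM values, 100% gave whole reads (tolerance 0.01), equal to the filtered counts, and edgeR on those recovered reads called 13 genes.

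The unfiltered counts were tested with edgeR 4.0.16 (TMM, filterByExpr with minimum count 10 and minimum total 15, legacy quasi-likelihood fit, genotype alone) in R 4.3.3, with Benjamini-Hochberg adjustment over 13842 rows. DESeq2 1.42.0 (Wald test) and limma 3.58.1 (voom with quality weights) were alternatives. Adjusted p-values are from these fits. CPM of all genes used the deposited library factors. Permutation tests used log2(CPM + 0.5), were exact and two-sided over 126 splits, and the 9 p-values given are unadjusted. Ids of 48349 genes matched GENCODE M21 names, which also gave exonic lengths and sequences. Python 3.11.15 made the summaries, and the tests were tried on simulated data.

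Named genes were the 10 members, the other ERBB ligands, the deleted genes, pathway genes passing edgeR or DESeq2 and, for members over 1 CPM, the 3 genes with the highest r. Genes shown for their range or role in the pathway lists (*Adam17*, *Rhbdf2*, *Hras*, *Nras*, *Lrig1*) and the single markers named were chosen after their values were seen. The members and lists were chosen with earlier results of these data known. P-values measure the spread between these mice only, and the labels do not name their founder line. Alternatives changed the normalization, filter, tool, table, block, length and libraries, and some (recovered reads, DESeq2 without each library, total counts only, and values without *Mucl1*, without single libraries or with other lengths beside shares, bounds and ratios) were added after seeing the data.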

Additional observations from a re-analysis of the deposited data

Results flagged for a closer look

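In 3 of the 18 groups of libraries examined for the 10 genes, 1 library stood apart from the rest by Dixon's criterion at the 95% level, which chance gives in about 1 of 20 groups. *Egfr* was highest in WT replicate 2, at 5.52 CPM, while the other 3 WT libraries had 4.47 to 4.64 CPM. *Btc* was highest in DKO replicate 2, at 3.32 CPM, while the other 4 DKO libraries had 1.79 to 2.21 CPM. *Ereg* was highest in WT replicate 1, at 0.179 CPM, which is 4 counts, while the other 3 WT libraries had 1 count each.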

How the results depend on the processing

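The log2 fold change of *Tgfa* was positive under every alternative run, from 0.62 with total counts only to 1.04, with adjusted p from 0.00423 to 0.220. The number of ERBB genes called was 0 by edgeR with all libraries and 1 (*Tgfa*) by DESeq2 and by limma-voom. Leaving out each library in turn it was 0 to 1 by edgeR (1 without WT replicate 2) and 0 to 1 by DESeq2 (0 without WT replicate 3). Over all genes, 87 were called, against 5 with upper quartile normalization, 5 with TMM without the 20 most abundant genes, 8 when scaled to epithelial markers, 347 with no filter, 616 by DESeq2, 148 by limma-voom, 45 with the robust fit, 13 from the filtered table, 13 from recovered reads, 332 with the mouse number range as block and 357 with total counts only. Without each library these were 0 to 441 by edgeR (441 without DKO replicate 4, 0 without any of WT replicates 1, 3 and 4 and DKO replicates 2 and 5) and 266 to 887 by DESeq2 (266 without WT replicate 1, 887 without DKO replicate 4). The cause was not tested.

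The replicate numbers were not shown to pair mice: same-numbered libraries had correlations of 0.213, 0.347, 0.102 and 0.012, and 3 of the 4 WT libraries went best with their own number. With the replicate block, which leaves out DKO replicate 5, 0 genes were called, 2024 had an unadjusted p under 0.05, and *Tgfa* had a log2 fold change of 0.98 (adjusted p = 0.115).

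No receptor was called by any setting. Total counts only moved the median of all genes to -0.28, with *Egfr* at -0.22, *Erbb3* at -0.18 and *Erbb4* at -0.17, which relative to that median are 0.060, 0.094 and 0.11, positive as with TMM. Scaling to epithelial markers moved the median to 0.11 with *Erbb2* at 0.061, which relative to it is -0.051, negative as with TMM. *Erbb3* was positive in the other alternatives. Without single libraries *Erbb4* was at -0.23 to 0.34 by edgeR and -0.21 to 0.34 by DESeq2, *Erbb2* at -0.11 to 0.024 and -0.10 to 0.025, and *Egfr* at -0.036 to 0.13 and -0.025 to 0.14. *Erbb4* was at -0.24 with the replicate block, -0.021 with the mouse number range as block and -0.017 for the permutation difference with a pseudocount of 0.1. Divided by the longest transcript, levels per kb became 0.469 for *Egfr* in WT, 0.0928 and 0.0592 for *Nrg1*, 0.258 and 0.486 for *Tgfa*, and 0.819 and 1.09 for *Hbegf* in WT and DKO, by the construction of the shorter length. Depth limits *Areg*, *Ereg*, *Nrg1* and *Erbb4*, which had at most 29 counts in any library.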
